A study of Mus musculus with 5 samples.

Results

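The 8 genes described here, Slc1a2, Slc1a3, Glul, Aqp4, Gja1, Gjb6, Aldoc and Ndrg2, carry out the uptake and homeostasis work of astrocytes. They were chosen by name, with earlier results of these data known, out of the 22532 genes counted. They were measured by single-nucleus RNA sequencing of the mouse central amygdala, a forebrain region that takes part in feeding. Transcripts were counted as unique molecular identifiers (UMIs), 1 per captured RNA molecule. Nuclei with 500 to 8000 detected genes and under 0.8% of UMIs from mitochondrial (mt-) genes were kept, 7161 of 23839 barcodes. Their UMIs were summed per library for 3 classes. The astrocyte gate took nuclei with at least 3 of the 8 genes detected and 0 UMIs of Gad1 and Gad2, the enzymes that make GABA (409 nuclei). Oligodendrocytes were gated on their own markers (132 nuclei), and neurons on Gad1 or Gad2 UMIs (6020 nuclei). Barcodes with at least 5% mt- UMIs, called high-mt barcodes, formed a further class (13537 barcodes). Levels are given as CPM, the UMIs of a gene scaled to a fixed total of UMIs of its class in a library. They include intronic reads and are compared between classes and groups, not between genes.

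The 5 libraries came from mice labelled C57BL6, and each pooled the central amygdala of 1 male and 1 female. The 3 fed libraries had free access to food. Libraries fed 1 and fed 2 were from naive mice of 8 weeks, and fed 3 was from Htr2a-Cre mice, labelled 12 weeks old, that carried an AAV expressing mCherry in Cre-positive cells. The 2 fasted libraries were from mice of 8 weeks without food for 20 hours (fasted 1) and 21 hours (fasted 2). Their sample titles name no transgene. Since each library is 1 pool, tests measure the spread between pools, and the transgene, the virus and the age of fed 3 cannot be told apart from its library. Deposited depth ran from 17321997 to 53146326 UMIs per library. UMIs of mCherry were counted in fed 3 alone (3480), the library labelled Htr2a-Cre, and pairs of libraries shared 0 to 22 barcodes.

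Astrocytes clear glutamate from the synapse through the sodium-driven transporters encoded by Slc1a2 (GLT-1) and Slc1a3 (GLAST), and glutamine synthetase, encoded by Glul, turns that glutamate into glutamine that neurons use again. Aqp4 encodes the water channel of the astrocyte endfeet on blood vessels. Gja1 (connexin 43) and Gjb6 (connexin 30) encode the gap junction proteins that join astrocytes into a network through which ions and glucose pass. Aldoc encodes the brain isoform of the glycolytic enzyme aldolase, and Ndrg2 a cytoplasmic protein widely used as an astrocyte marker.

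The sequences of Glul, Aldoc and Ndrg2 are shown because their fold changes in fasted neurons were the largest of the 8 relative to their SE, and that of Gja1 because it fell in the astrocyte gate. They are the 100 bases before the first listed transcription start in RefSeq (GRCm38.p6), 5′ to 3′ on the gene's strand, with 2 motifs in capitals, the GC box (GGGCGG) and the TATA box (TATAAA), searched on both strands. On this build they lie at chr1:153899829-153899928 (+), chr11:78322973-78323072 (+), chr14:51914005-51914104 (-) and chr10:56377200-56377299 (+).
Glul: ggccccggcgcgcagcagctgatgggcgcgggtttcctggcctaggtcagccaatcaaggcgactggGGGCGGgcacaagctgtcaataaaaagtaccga
Aldoc: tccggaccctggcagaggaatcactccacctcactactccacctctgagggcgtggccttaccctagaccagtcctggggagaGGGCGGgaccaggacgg
Ndrg2: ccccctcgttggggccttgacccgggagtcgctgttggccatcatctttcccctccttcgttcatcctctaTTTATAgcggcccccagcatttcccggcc
Gja1: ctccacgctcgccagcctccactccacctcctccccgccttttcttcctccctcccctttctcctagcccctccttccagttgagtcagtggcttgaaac
Glul and Aldoc held 1 GC box each and Ndrg2 held 1 TATA box on the other strand, while Gja1 held neither. Of 27021 promoter windows of this length, 25.2% held a GC box and 5.95% a TATA box. The match is a description of these letters and not of a factor's binding.

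The gate was first checked against 12 astrocyte markers that are not among the 8 genes (among them Gpc5, Slc4a4, Slc7a10, Ntsr2, Mertk, Fgfr3, Bmpr1b, Slc6a11, Acsbg1, Cldn10 and Ranbp3l). Not all of its nuclei carried them. Nuclei with under 0.5% of UMIs from these markers made up 8.62%, 11.1% and 6.67% of the gate in fed 1, fed 2 and fed 3, against 21.9% and 27.9% in fasted 1 and fasted 2. Because such nuclei held more UMIs, they supplied 14.1% to 22.6% of the gate's UMIs in the fed libraries and 36.5% and 46.7% in the fasted ones. The groups did not overlap. Fed 3 stood apart in another way, since nuclei with 0.5 to 1.5% marker UMIs held 41.9% of its gate UMIs, against 9.57% to 18.2% in the other libraries. The Slc1a2 level of the nuclei under 0.5% was 273 to 559 CPM in the 5 libraries, against 8604 to 10480 CPM in gate nuclei with at least 1.5% marker UMIs.

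**Figure D1:**
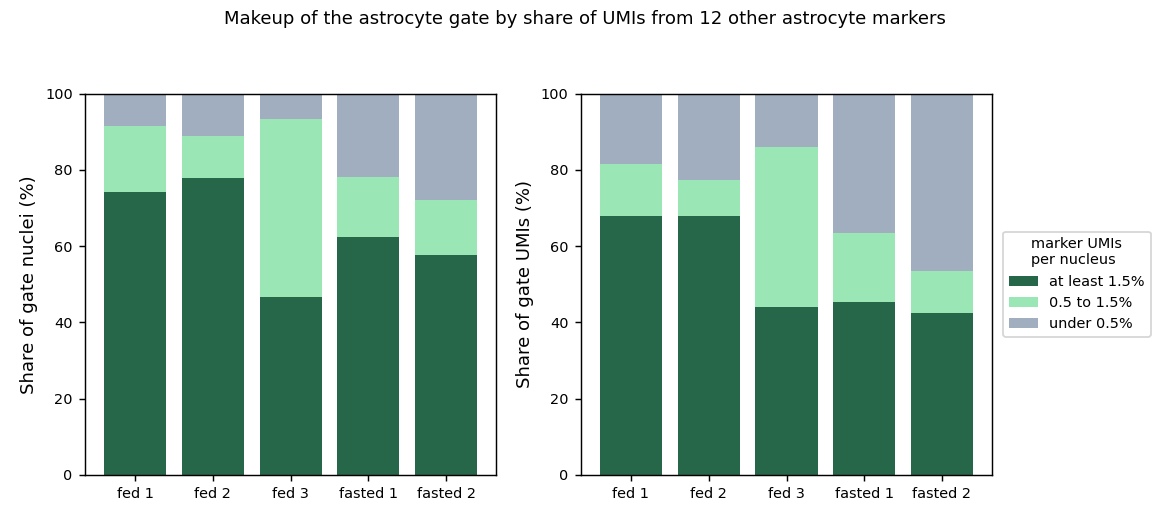
Share of the astrocyte gate's nuclei (left, %) and of its UMIs (right, %) held by nuclei with under 0.5%, 0.5 to 1.5% and at least 1.5% of UMIs from 12 astrocyte markers outside the 8 genes, by library. The marker-poor part (grey) holds 14.1% to 22.6% of UMIs in the fed libraries and 36.5% and 46.7% in the fasted ones.

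Some markers of other cell types moved with the groups inside the gate. The 9 microglia markers summed to 37.0 to 98.4 CPM in the fed libraries and to 1317 and 3128 CPM in the fasted ones, and all 9 were called higher in fasted (C1qb from 4.62 to 6.87 CPM in fed to 208 and 507 in fasted). The 12 oligodendrocyte markers summed to 293 to 1245 CPM in fed and 1213 and 2120 CPM in fasted, and the 8 precursor markers to 716 to 1095 and 1534 to 1678 CPM. The oligodendrocyte sums thus overlapped between groups. Neuron marker sums overlapped too (3916 to 6845 CPM in fed, 5075 and 7880 in fasted), as did endothelial and mural ones (75.5 to 169 and 131 to 140). None of 9 tested oligodendrocyte, 6 precursor and 2 endothelial and mural markers was called, and of 7 neuron markers 1 rose, Celf4 (0.95 ± 0.23, adjusted p = 0.0429). Results are given both for the whole gate and for its core, the 265 gate nuclei with at least 1.5% marker UMIs (43, 77, 21, 60 and 64 in fed 1 to 3 and fasted 1 and 2). In the core the microglia markers summed to 40.5 to 91.5 CPM in fed and 31.3 to 35.0 CPM in fasted, and the oligodendrocyte markers to 178 to 225 and 379 to 529 CPM. The core was defined after these values were seen.

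Every one of the 8 genes was higher in the core than in neurons and in oligodendrocytes of the same library, in 5 of 5 libraries. As the gate is built on these genes, that order is a description. Slc1a2 averaged 9642 ± 723 CPM (SD, n = 5) in the core, 2969 ± 374 in high-mt barcodes, 204 ± 28.5 in neurons and 151 ± 65.4 in oligodendrocytes, where the last pair overlapped between libraries. Slc1a3 averaged 3119 ± 341 CPM in the core, 662 ± 95.7 in high-mt barcodes, 104 ± 29.4 in oligodendrocytes and 39.1 ± 15.2 in neurons. In oligodendrocytes, 3 of the genes were at or near 0: of Aqp4, Gja1 and Gjb6, 1 UMI each was counted over all 5 libraries, and 3 UMIs, the limit a count of 0 allows, correspond to 10.98 to 51.5 CPM there. Such limits cover counting error only. Nuclei of the astrocyte gate, with at least 3 of the 8 genes, were left out of oligodendrocytes, so these low levels depend on the gating.

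Inside the gate, Slc1a2 had a UMI in 93.7% to 98.0% of nuclei over the 5 libraries, Gja1 in 30.2% to 68.9% and Aqp4 in 15.6% to 35.6%. Gja1 values rest on 46 to 119 UMIs per library and Aqp4 values on 17 to 33, so both are measured from few molecules.

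In the whole gate, Gja1 was the 1 gene of the 8 that passed the test between fed and fasted. Its level was 395, 272 and 333 CPM in fed 1 to 3, and 122 and 137 CPM in fasted 1 and 2; all fed libraries were above both fasted ones. The log2 fold change was -1.36 ± 0.25 (SE) with an adjusted p of 0.00861 by edgeR's quasi-likelihood test. Of 6841 genes tested, 3.00% were called in either direction. Because the gate is built on the 8 genes, Gja1 among them, the test is not independent of how its nuclei were chosen. Gja1 was 0 to 43.4 CPM in gate nuclei with under 0.5% marker UMIs, which held more of the gate's UMIs in fasted. Their part in the difference was not tested. The call was lost without fasted 1 and held without each of the other libraries. It was also lost with at least 4 of the 8 genes required, where 0 genes were called lower. Without nuclei holding other glial or vascular markers, and in nuclei under 0.2% mt- UMIs, 0 genes were called in either direction.

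The glutamate transporters were also lower in both fasted gates, without passing the test. Slc1a2 was 7014, 6822 and 6961 CPM in the fed libraries and 5350 and 4104 in the fasted ones (log2 fold change -0.58 ± 0.17, adjusted p = 0.0908). Slc1a3 was 2771, 2162 and 2212 CPM in fed against 1651 and 1373 in fasted (-0.68 ± 0.19, adjusted p = 0.0731). Fed and fasted did not overlap for either transporter. With the replicate number as a block, Slc1a2 and Slc1a3 were called (adjusted p = 0.0254 and 0.00448), as were 7.22% of genes against 3.00% without it. The labels do not state that this number is the preparation batch. Both transporters are among the genes that build the gate, so these calls are not independent of how its nuclei were chosen. Gate nuclei with under 0.5% marker UMIs held 36.5% and 46.7% of gate UMIs in fasted, against 14.1% to 22.6% in fed. In them Slc1a2 was 273 to 559 CPM and Slc1a3 91.1 to 592 CPM. The part of these nuclei in the transporter differences was not tested.

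Aqp4 was 95.9, 75.5 and 102 CPM in fed gates and 50.2 and 45.8 in fasted ones, again without overlap (-0.92 ± 0.31, adjusted p = 0.164). The 4 genes whose fasted libraries all lay below the fed ones, Slc1a2, Slc1a3, Aqp4 and Gja1, compare with 12.4% of all genes tested. For the other 4, the groups overlapped. Glul was 434, 789 and 356 CPM in fed and 536 and 537 in fasted, and Gjb6 was 158, 227 and 60.0 against 177 and 134. Aldoc was 118, 201 and 102 against 145 and 261 CPM, and Ndrg2 508, 911 and 448 against 446 and 546. Fed 2 was the highest fed library for all 4 of them.

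In the core of the gate, none of the 8 genes was called, and the transporters lost their gap. The core test called 0.215% of 3721 genes. Core nuclei also had to carry at least 3 of the 8 genes, so this test is not independent of how they were chosen. A fall shared with the 12 markers would also take nuclei out of the core. The core was 74.1%, 77.8% and 46.7% of gate nuclei in fed 1 to 3, and 62.5% and 57.7% in fasted 1 and 2. Slc1a2 was 9523, 9453 and 10152 CPM in fed and 10480 and 8604 in fasted, where the fasted libraries took both the highest and the lowest place (-0.03 ± 0.15, adjusted p = 0.993). Slc1a3 was 3701, 2992 and 3017 CPM in fed against 3078 and 2807 in fasted (-0.14 ± 0.18, adjusted p = 0.989). Gate nuclei with under 0.2% mt- UMIs numbered only 12, 50 and 25 in fed 1 to 3 and 5 and 15 in fasted 1 and 2. In them the fitted differences of the transporters were larger, with no gene called: Slc1a2 was -1.88 ± 0.42 (adjusted p = 0.0621) and Slc1a3 -1.73 ± 0.44 (adjusted p = 0.0685), and 631 genes had an unadjusted p under 0.05.

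Gja1 kept its order in the core, at 557, 388 and 388 CPM in fed and 204 and 275 CPM in fasted. Its log2 fold change was -0.86 ± 0.28, with an unadjusted p of 0.00639 and an adjusted p of 0.475, so it did not pass. With the replicate number as a block its adjusted p was 0.0503, where 1.16% of genes were called. Aqp4 was 125, 108 and 189 CPM against 87.4 and 83.6 (-0.65 ± 0.37, adjusted p = 0.889). These 2 genes had no overlap between groups, and so did 10.8% of all genes tested in that direction. Gates built on the 12 other markers, with no use of the 8 genes, gave Gja1 a log2 fold change of -1.20 ± 0.36 (adjusted p = 0.893).

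**Figure D2:**
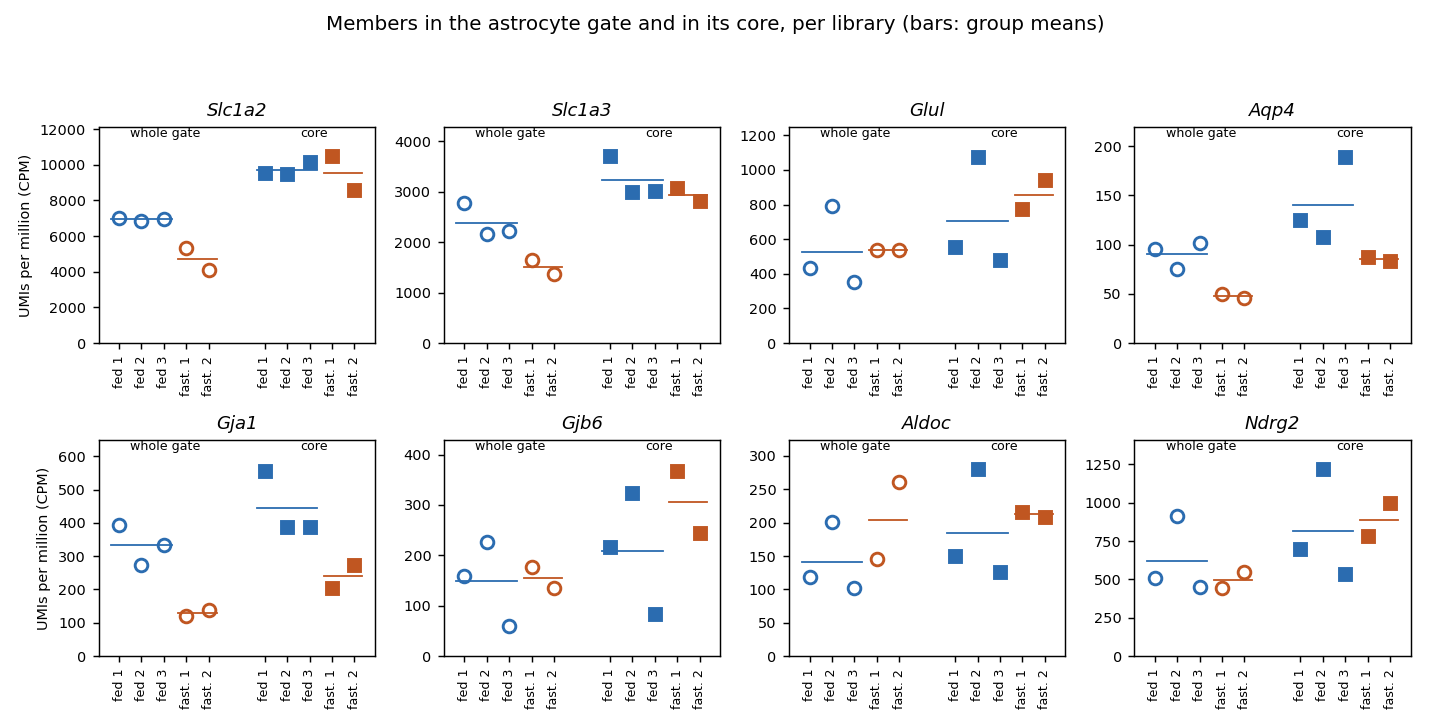
Level of each of the 8 genes (CPM, linear axes from 0) in the whole astrocyte gate (open circles) and its core (filled squares), by library, fed in blue and fasted in orange, with lines at group means. In the whole gate both fasted libraries lie below all fed ones for Slc1a2, Slc1a3, Aqp4 and Gja1, and in the core for Aqp4 and Gja1.

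Other genes of the same functions were read from lists fixed with earlier results of these data known. Counts of called genes are read against the 3.00% of all 6841 genes called in the gate. Of the 14 tested genes of glutamate and GABA handling, 3 fell in the whole gate and none rose (median log2 fold change -0.67, against 0.01 over all genes tested). They were Grm3, a metabotropic glutamate receptor, from 1044 to 1649 CPM in fed to 592 and 657 in fasted (-1.13 ± 0.22, adjusted p = 0.011), Slc7a11, the cystine-glutamate exchanger (-1.12 ± 0.22, adjusted p = 0.0117), and Slc7a10, a serine and glycine transporter (-1.11 ± 0.25, adjusted p = 0.0257). In the core none of them passed: Grm3 was -0.69 ± 0.24 (adjusted p = 0.549), Slc7a11 -0.42 ± 0.25 and Slc7a10 -0.53 ± 0.28. Slc7a10 is also 1 of the 12 markers that define the core, and the only one of them to pass in the whole gate.

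Of the genes for potassium, sodium and water balance, 0 of 15 tested passed (median -0.48). Dtna, a dystrophin-associated protein, had a log2 fold change of -0.68 ± 0.18 (adjusted p = 0.0635) in the gate and -0.09 ± 0.19 in the core. Of 4 tested gap junction and contact genes none passed, and their median was -0.01. In glucose, lactate and glycogen handling 1 of 15 rose, Gapdh, a glycolytic enzyme present in all cells, from 13.7 to 27.7 CPM in fed to 74.0 and 148 in fasted (2.49 ± 0.43, adjusted p = 0.00521). Gapdh in the core was 1.59 ± 0.61 (adjusted p = 0.649). Of the 15 astrocyte identity genes that are not among the 8, 1 fell, again Slc7a10, and C4b was the 1 reactive astrocyte gene with enough counts to test (-0.91 ± 0.43, adjusted p = 0.375). In the core no gene of these lists passed.

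The share of kept nuclei that fell in the gate was 5.04%, 8.76% and 3.13% in fed and 5.62% and 6.40% in fasted. The difference of the means was 0.37 percentage points (exact permutation test, two-sided, p = 0.8). With 3 libraries against 2, the smallest p this test allows is 0.1. The rule on Gad1 and Gad2 also removed marker-rich nuclei with a Gad1 or Gad2 UMI, 5, 18 and 15 in fed against 11 and 63 in fasted. By their Gad1 or Gad2 UMIs these nuclei are counted in the neuron class. Core values with such nuclei let in kept Gja1 lower in fasted (-0.68 ± 0.26, adjusted p = 0.677).

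In Gad1/Gad2 neurons, Glul, Aldoc and Ndrg2 were higher in both fasted libraries than in all fed ones, whereas in the gate their groups overlapped. Glul was 18.5, 15.9 and 17.7 CPM in fed 1 to 3 and 43.1 and 42.0 CPM in fasted, a gap far wider than the spread within either group (log2 fold change 1.27 ± 0.13, adjusted p = 0.0778). Ndrg2 was 14.7, 13.7 and 14.7 against 27.6 and 34.3 (1.08 ± 0.13, adjusted p = 0.0778). Aldoc was 12.2, 6.83 and 8.73 against 26.9 and 23.0 (1.43 ± 0.23, adjusted p = 0.175).

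By edgeR's quasi-likelihood test 0% of 13782 genes were called in neurons, with 808 genes at an unadjusted p under 0.05. Other tests called genes, Glul, Aldoc and Ndrg2 among them. The likelihood ratio test gave Glul an adjusted p of 3.73e-11, Ndrg2 1.36e-07 and Aldoc 1.26e-05, and it called 1.28% of genes. DESeq2 gave 1.8e-08, 2.82e-05 and 8.1e-05 and called 0.871%. With the replicate number as a block, 7 of the 8 genes were called higher in fasted, all but Aqp4, against 2.74% of genes. The blocked fold changes ran from 0.37 ± 0.09 (Slc1a2) to 1.43 ± 0.16 (Aldoc).

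The remaining genes moved less clearly in neurons. Slc1a3 was 21.8, 31.3 and 39.4 CPM in fed and 40.2 and 62.8 in fasted (0.70 ± 0.24, adjusted p = 0.642). Slc1a2 was 173, 174 and 217 against 228 and 230 (0.26 ± 0.13, adjusted p = 1.00). Gja1 was 2.74, 3.32 and 6.10 CPM against 6.69 and 9.14, and Gjb6 0.57, 3.07 and 1.41 against 3.64 and 6.51. In fed 1 these values rest on 24 UMIs of Gja1 and 5 of Gjb6. Aqp4 was at 1.67 to 3.12 CPM in all 5 libraries, and its groups overlapped. In 7 of the 8 genes both fasted libraries were above all fed ones, and 11.4% of all genes tested had that order.

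Several other measures of these libraries moved with the same groups. The median mt- share of neurons was 0.121%, 0.066% and 0.0481% in fed and 0.295% and 0.214% in fasted. In neurons with under 0.2% mt- UMIs the fold change was 0.99 ± 0.15 for Glul, 1.42 ± 0.31 for Aldoc and 0.60 ± 0.17 for Ndrg2, with adjusted p from 0.247 to 0.619. Neurons with at least 0.5% UMIs from the 12 astrocyte markers were then left out (5798 of 6020 remained). Glul was 18.1, 11.5 and 11.7 CPM in fed against 39.2 and 32.3 in fasted (1.38 ± 0.22). In 6 of the 8 genes both fasted libraries still lay above the fed ones, where 11.4% of genes had that order. Slc1a2 lost its gap (148, 124 and 134 CPM in fed, 182 and 128 in fasted), and Aqp4 overlapped here too. The microglia markers summed to 42.4 to 62.3 CPM in fed neurons and 76.8 and 107 CPM in fasted ones, and the oligodendrocyte markers to 236 to 254 and 259 and 340 CPM. The part of these in the neuron values was not tested.

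**Figure D3:**
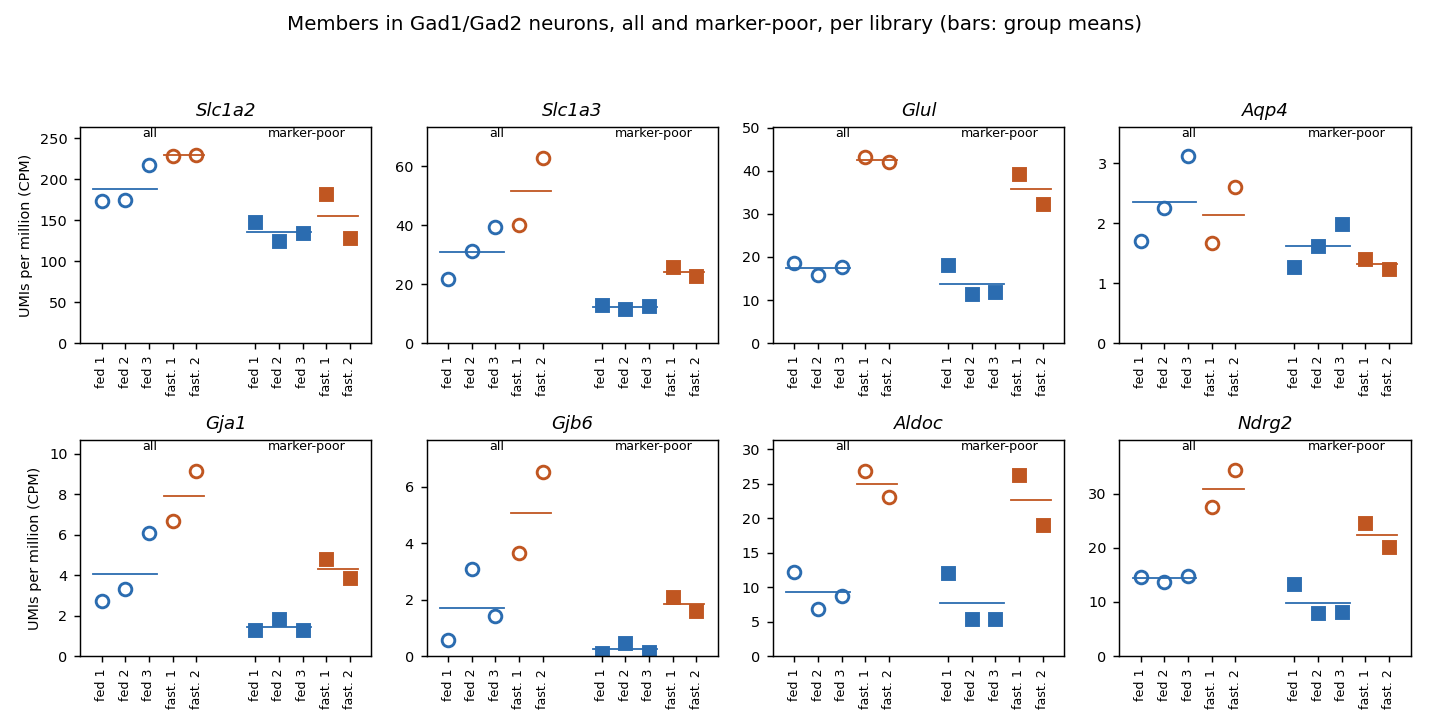
Level of each of the 8 genes (CPM, linear axes from 0) in all Gad1/Gad2 neurons (open circles) and in those with under 0.5% UMIs from 12 astrocyte markers (filled squares), by library, fed in blue and fasted in orange, with lines at group means. Glul is at 15.9 to 18.5 CPM in the fed libraries and 42.0 and 43.1 in the fasted ones.

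The fasting effect itself was compared between the whole gate and neurons in 1 fit, with the library as a term. It was lower in the gate for 6 of the 8 genes, where 1.53% of 13344 genes were called. The gate is built on these same 8 genes, so the fit is not independent of how its nuclei were chosen. Marker-poor nuclei also held more of the gate's UMIs in fasted, and their part in the difference was not tested. The difference was -2.32 ± 0.32 on the log2 scale for Gja1 (adjusted p = 2.35e-09), -1.41 ± 0.26 for Ndrg2 (3.49e-05), -1.40 ± 0.25 for Slc1a3 (1.2e-05), -1.25 ± 0.26 for Glul (0.0006), -1.47 ± 0.40 for Gjb6 (0.0233) and -0.87 ± 0.24 for Slc1a2 (0.0252). Aldoc (-1.01 ± 0.32, adjusted p = 0.0723) and Aqp4 (-0.81 ± 0.60, adjusted p = 0.724) did not pass. With the core in place of the whole gate, Gja1 alone passed (-1.81 ± 0.35, adjusted p = 0.00127), where 0.0857% of genes were called. Within a class and with no block, Gja1 passed edgeR's quasi-likelihood test neither in the core nor in neurons. The difference includes its low neuron level, 2.74 to 6.10 CPM in fed and 6.69 and 9.14 in fasted, or 0.491% to 3.32% of the core level. With the gate built on the 12 other markers none of the 8 genes passed (632 genes had an unadjusted p under 0.05), and Gja1 had a difference of -2.08 ± 0.43 (adjusted p = 0.364).

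**Figure D4:**
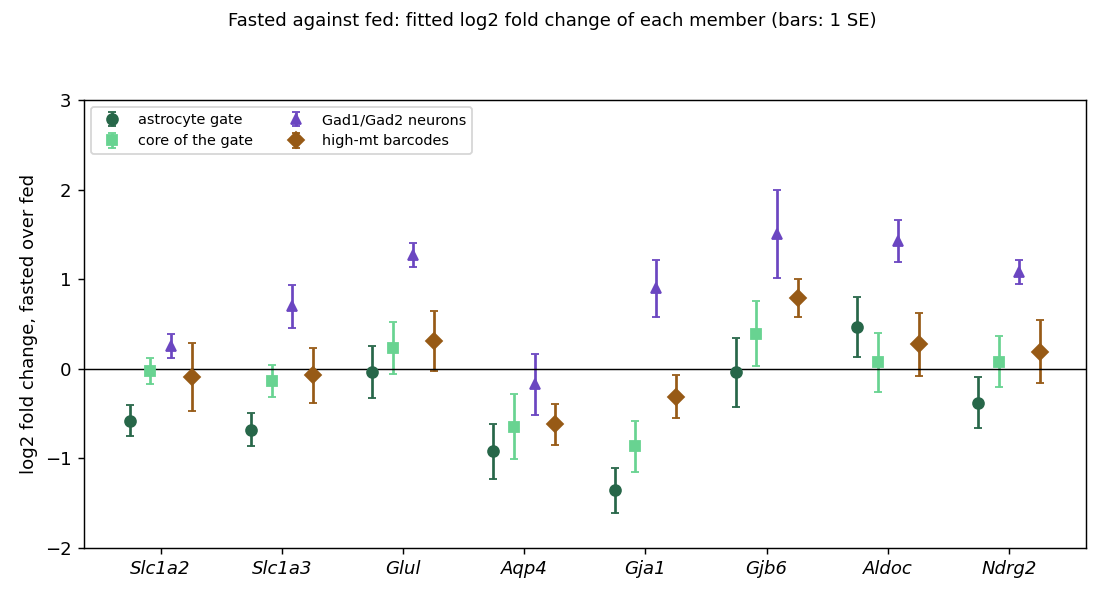
Fitted log2 fold change of each gene, fasted over fed, with bars of 1 SE, in the astrocyte gate, its core, Gad1/Gad2 neurons and high-mt barcodes. Gja1 lies at -1.36 in the gate, -0.86 in the core and 0.90 in neurons.

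In oligodendrocytes only Slc1a2, Slc1a3 and Glul had enough counts to test, and 0% of 2828 genes were called (edgeR's quasi-likelihood test, with 103 genes at an unadjusted p under 0.05, against 9 called by the likelihood ratio test and 1 by DESeq2). Glul was 51.5, 76.8 and 17.9 CPM in fed and 154 and 154 in fasted, from 2 to 24 UMIs per library (1.48 ± 0.55, unadjusted p = 0.0234, adjusted p = 1.00). No difference of the fasting effect between the gate and oligodendrocytes was called for any of the 8 genes. The quasi-likelihood fit called 0% of 5600 genes (332 at an unadjusted p under 0.05, and 15 called by the likelihood ratio test). Aqp4, Gja1 and Gjb6 had 1 UMI each in oligodendrocytes over all libraries, so the fit could not compare them. The microglia markers summed to 0 to 43.9 CPM in fed oligodendrocytes and 1824 and 173 in fasted ones, and their part in the Glul value was not tested. The classes held 14 to 46 oligodendrocytes per library. Nuclei with at least 3 oligodendrocyte markers that fell in the astrocyte gate were left out of them. These numbered 0, 9 and 1 in fed 1 to 3, and 7 and 26 in fasted 1 and 2.

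High-mt barcodes were 67.7%, 38.8% and 7.26% of barcodes in fed 1 to 3 and 61.1% and 62.4% in fasted 1 and 2 (exact permutation test, two-sided, p = 0.4). Their median mt- share was 15.8% to 23.5%, and CPM there counts mt- UMIs in the total. The 8 genes were far more abundant in them than in neurons, and in a different balance from the core. Aldoc was 7.09 to 13.0 times as high in high-mt barcodes as in the core of the same library (mean 10.5 ± 2.19, SD, n = 5). Ndrg2 was 1.61 to 2.62 times and Glul 1.28 to 2.66 times as high, both in 5 of 5 libraries.

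The other 5 genes were lower in high-mt barcodes than in the core in 5 of 5 libraries. The ratio was 0.281 to 0.378 for Slc1a2, 0.196 to 0.222 for Slc1a3, 0.303 to 0.584 for Aqp4, 0.323 to 0.572 for Gja1 and 0.125 to 0.662 for Gjb6. In GRCm39 (GENCODE vM39) Aldoc is the shortest of the 8 genes, 5271 bp at chr11:78213619-78218889, with exons over 88.6% of it. Glul spans 9780 bp at chr1:153775690-153785469 and Ndrg2 15882 bp at chr14:52142588-52158469. Slc1a2 and Slc1a3, the longest, span 132556 bp at chr2:102488574-102621129 and 77992 bp at chr15:8663604-8741595, with exons over 10.6% and 18.7%. Exon shares were 48.5% for Gja1 and 37.9% for Gjb6, both lower in high-mt barcodes, and 40.4% for Glul and 36.9% for Ndrg2, both higher. Gjb6 spans 10331 bp at chr14:57360757-57371087. The part of gene length or exon share in the ratios was not tested. Ndrg2 overlaps Tppp2 on the other strand and Glul overlaps Teddm2, and an overlapping antisense gene is annotated for each of the 8 but Aldoc.

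**Figure D5:**
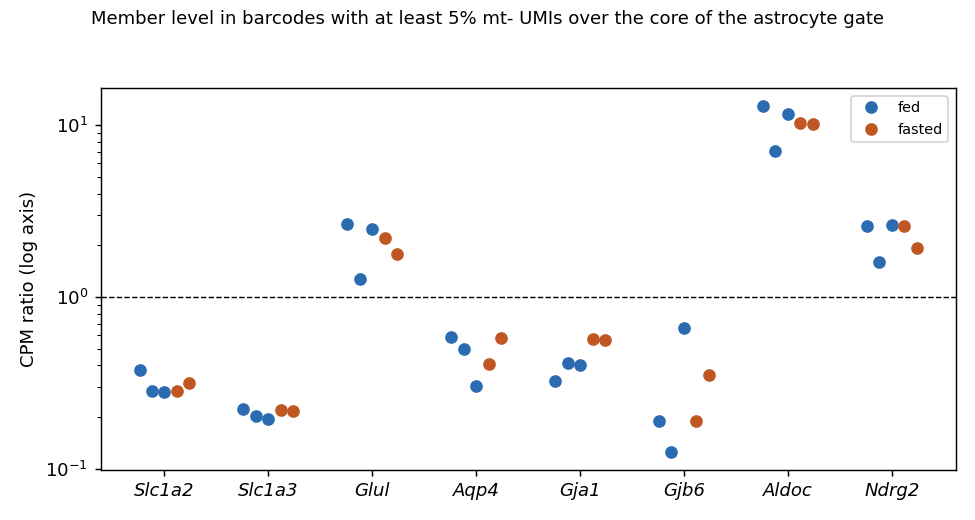
Level in high-mt barcodes divided by the level in the core of the astrocyte gate of the same library, for each gene (log axis, 1 point per library, fed in blue and fasted in orange, dashed line at 1). Aldoc lies at 7.09 to 13.0, Glul and Ndrg2 lie above 1, and the other 5 genes lie below 1 in every library.

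Between fed and fasted, none of the 8 genes was called in high-mt barcodes, where 0.0721% of 12475 genes were. Gjb6 came nearest, at 41.1, 40.5 and 55.5 CPM in fed and 69.5 and 85.6 in fasted (0.79 ± 0.21, adjusted p = 0.344). Aqp4 was 72.8, 53.9 and 57.2 CPM against 35.9 and 48.1 (-0.62 ± 0.23, adjusted p = 0.95). With the replicate number as a block both passed (Gjb6 0.83 ± 0.13, adjusted p = 0.00305, Aqp4 -0.73 ± 0.15, adjusted p = 0.0205), where 1.40% of genes were called. Glul, Aldoc and Gjb6 had both fasted libraries above the fed ones, an order that 8.07% of genes had, and Aqp4 and Gja1 had them below, as did 5.65%.

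Glul was 1482, 1374 and 1197 CPM in fed and 1702 and 1667 in fasted high-mt barcodes (0.31 ± 0.33), and Aldoc 1946, 1985 and 1463 against 2232 and 2133 (0.27 ± 0.35). Both fold changes were smaller than their neuron values of 1.27 and 1.43, a comparison that was not tested. The neuron level of Glul was 1.15% to 1.48% of its high-mt level in fed libraries and 2.52% and 2.53% in fasted ones. For Aldoc it was 0.344% to 0.627% in fed and 1.08% and 1.20% in fasted. The part of high-mt material in the neuron values was not tested. In high-mt barcodes Gja1 was 180, 161 and 156 CPM in fed against 117 and 156 in fasted (-0.31 ± 0.24). The fasting effect differed between the gate and high-mt barcodes for none of the 8 genes, although 1.83% of 9546 genes were called, and Gja1 came nearest (-1.08 ± 0.30, adjusted p = 0.0578).

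Across all barcodes, whatever their class, the median level over the 5 libraries was higher at 10% mt- UMIs or above than under 0.2% for all 8 genes, but not every step between was a rise. Aldoc had a median of 9.52 CPM under 0.2% mt- UMIs, 32.6 from 0.2 to 0.8%, 80.5 from 0.8 to 2%, 229 from 2 to 5%, 980 from 5 to 10% and 2098 at 10% or above. Slc1a2 went from 208 CPM to 480, 635, 1408, 2036 and 3121 over the same ranges. From 5 to 10% to 10% or above the median was lower for Slc1a3 (659 to 620 CPM) and Gja1 (174 to 158 CPM). The libraries spread widely within a range, with Slc1a2 at 252 to 1623 CPM from 0.8 to 2%. Cell types are not separated in these ranges, so a change in makeup and a change per cell cannot be told apart.

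By Pearson's correlation of log2(CPM + 10) over 20 sums (4 classes in 5 libraries), the genes most like the summed 8 were Pdlim4 (r = 0.982), Kcnj16, a potassium channel subunit (0.98), Acsbg1, an acyl-CoA synthetase and 1 of the 12 markers (0.979), Glud1, glutamate dehydrogenase (0.978), and Sparcl1, a secreted matrix protein (0.978). The sums share libraries and classes, so this is a description of class differences.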

How the data were processed

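Nuclei of the mouse central amygdala were profiled with droplet-based 3′ chemistry in 5 libraries (3 fed, 2 fasted). The authors made the deposited counts, whole UMIs per gene and barcode, with Cell Ranger 5.0.0 per the file headers and the study's methods, on GRCm39 with intronic reads included, whereas the submitters' processing notes name Cell Ranger 2.1.1 and mm10. The bounds of 500 to 8000 genes and under 0.8% mt- UMIs are the study's. The classes were rebuilt here from marker UMIs, so they differ from the study's clusters.

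Raw UMIs were summed per class and library and tested with edgeR 4.0.16 (quasi-likelihood test, TMM scaling, filterByExpr, Benjamini-Hochberg adjustment over all genes tested, called at an adjusted p under 0.05). Differences of the fasting effect between classes were fitted with library and class-by-group terms. The SE of an edgeR fold change was derived from its test, as its absolute log2 value over the square root of the test statistic. DESeq2 1.42.0, the likelihood ratio test, other scalings and gates, thinning to 1500 UMIs, and leaving out doublets called by Scrublet or each library were alternatives. The fits were tested on simulated data. The core (at least 1.5% UMIs from 12 markers), the neurons with under 0.5% of them or under 0.2% mt- UMIs, and total UMI scaling were added after the data were seen, and the members and lists were chosen with earlier results of these data known. The named genes are all 8 members, at most 4 per list with the smallest p in the astrocyte gate, and the 5 most like the summed members; 1 gene of the lists is not reported here.

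Replicate numbers pair fed 1 with fasted 1 and fed 2 with fasted 2. The study prepared a first fed and fasted pair of datasets in the same batch, and likewise a second pair. That the study's numbers are those of the labels was assumed. Correlations of the paired libraries' deviations from their group means were 0.081 and 0.095 in astrocytes, -0.344 and 0.037 in oligodendrocytes, 0.340 and 0.498 in neurons and 0.291 and 0.290 in high-mt barcodes. With 2 fasted libraries, each fed library has the same value with opposite sign for the other fasted library. The unpaired fed 3 gave 0.008, 0.454, 0.198 and 0.011 with fasted 1 in these classes. With that block, fed 3 takes its own term and the fold change rests on the other 4 libraries. Promoter windows are from RefSeq (GRCm38.p6), in which 7 of the 8 members were searched.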

Additional observations from a re-analysis of the deposited data

Results flagged for a closer look

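The fasting effect (log2, fasted over fed) differed between the astrocyte gate and Gad1/Gad2 neurons for 6 of the 8 genes by the interaction term of edgeR's quasi-likelihood test: it was lower in the gate by -2.32 for Gja1, -1.47 for Gjb6, -1.41 for Ndrg2, -1.40 for Slc1a3, -1.25 for Glul and -0.87 for Slc1a2. Of all 13344 genes tested, 1.53% were called. The gate is built on these same 8 genes, so the test is not independent of how its nuclei were chosen. With the core of the gate Gja1 alone of the 8 passed (11 genes called), and Ndrg2 had an adjusted p of 0.873. Within a class and with no block, Gja1 passed the quasi-likelihood test neither in the core nor in neurons. With the gate on the 12 other markers none passed (0 of 13208 genes called, 632 at an unadjusted p under 0.05). With the whole gate, Gja1 and Ndrg2 passed without each library in turn (highest adjusted p 0.000174 and 0.0481). Slc1a3 did not pass without fasted 2 (adjusted p = 0.156), and Glul did not without fed 2 (0.243). Gjb6 did not pass without fed 1, fed 2 or fasted 2 (0.261, 0.165 and 0.86). Slc1a2 passed only without fed 3 among these refits. Aldoc, not called with all libraries, passed without fed 1, fed 3 or fasted 2 (0.0176, 0.024 and 0.02).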

How the results depend on the processing

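The number of genes called between fed and fasted in the astrocyte gate, 205 with all settings as reported, was 332 by the likelihood ratio test, 434 with no filter on low counts, 119 by DESeq2, 494 with the replicate block, 52 with at least 4 of the 8 genes required, 26 after thinning to 1500 UMIs, and 0 in the gate built on the 12 other markers, without nuclei holding other glial or vascular markers, and in nuclei under 0.2% mt- UMIs (383, 483 and 631 genes at an unadjusted p under 0.05). In the core it was 8, 7 with Gad1 or Gad2 UMIs allowed, 43 with the replicate block, 26 by the likelihood ratio test, 8 with RLE scaling and 2 by DESeq2. Leaving out a library gave 113 (without fasted 2) to 159 in the gate and 0 to 16 in the core, where fed 1, fed 2 and fasted 2 each took the count to 0. Over these refits the range across the gate and its core was 0 to 159. In oligodendrocytes, where 0 genes were called, the count was 9 by the likelihood ratio test, 34 with no filter, 1 by DESeq2 and 0 to 8 without a library. In neurons, also at 0, it was 176 by the likelihood ratio test, 124 with no filter, 120 by DESeq2, 378 with the replicate block, 1 with at least 5 Gad1 or Gad2 UMIs and 0 to 34 without a library, the highest without fed 1. In high-mt barcodes (9) it was 46 by the likelihood ratio test, 74 with no filter, 175 with the replicate block, 4 with total UMI scaling and 5 to 108 without a library, the highest without fed 1. The difference between the gate and oligodendrocytes (0 called) gave 15 by the likelihood ratio test, 13 with no filter, 3 with the gate on the 12 markers and 0 to 97 without a library (97 without fasted 1). That against neurons (204) gave 0 with the gate on the 12 markers, 11 with the core, 11 with the core and marker-poor neurons and 83 to 193 without a library (99 without fed 1, 83 without fasted 2). That against high-mt barcodes (175) gave 290 by the likelihood ratio test, 0 with the gate on the 12 markers or with the core, and 61 to 122 without a library (61, 74, 86 and 72 without fed 1, fed 2, fed 3 and fasted 2). The gate's share of nuclei, 0.37 percentage points higher in fasted, was -0.20 with at least 4 genes, -0.40 in the core and -0.89 to 1.93 without a library, below 0 without fed 3 or fasted 2.

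Some small differences of single genes turned direction. In the gate, Glul (-0.04) became 0.0189 with total UMI scaling, 0.21 with at least 4 genes, 0.0783 without other glia, 0.23 in the core, 0.0927 in the core with Gad UMIs and 0.31 thinned. Gjb6 (-0.04) became 0.0148, 0.35, 0.29, 0.39, 0.44 and 0.43 in the same order, and 0.0678 with the gate on the 12 markers. Ndrg2 (-0.38) became 0.0346 with at least 4 genes, 0.0762 in the core, 0.0481 in the core with Gad UMIs and 0.01999 thinned. Aldoc (0.46) became -0.61 under 0.2% mt- UMIs and -0.38 in the core with Gad UMIs. Without a library, Glul ran from -0.27 to 0.44, Gjb6 from -0.41 to 0.53, Aldoc from -0.0526 to 0.92 and Ndrg2 from -0.58 to 0.0601. In neurons Slc1a2 became -0.00896 under 0.2% mt- UMIs, and Aqp4 0.0746 with the replicate block and -0.51 to 0.0849 without a library. In oligodendrocytes, without a library, Slc1a2 ran from -0.49 to 0.51 and Slc1a3 from -0.68 to 0.11. In high-mt barcodes Slc1a2 ran from -0.26 to 0.11 and Slc1a3 from -0.27 to 0.16. Gja1 in the gate minus oligodendrocytes ran from -1.45 to 1.72. The cause of these shifts was not tested, and fits with fewer libraries or nuclei also have fewer counts. Gja1 stayed negative in the gate and core under every alternative tried, from -1.51 to -0.63, but lost its call in 17 of these alternatives. The replicate block changed no call of the 8 genes other than those reported beside the gate, neuron and high-mt comparisons. With 1 fasted library left, its spread is assumed to be that of the fed libraries.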

Other observations

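In the core of the astrocyte gate, 8 of 3721 genes were called between fed and fasted, all higher in fasted, and none was among the 8 genes or their lists. Fkbp5, a co-chaperone of the glucocorticoid receptor, led with a log2 fold change of 2.68 ± 0.40 (edgeR's quasi-likelihood test, adjusted p = 0.00477), followed by Zfhx3, a transcription factor (1.27 ± 0.23, adjusted p = 0.0289). The other 6 were Kcnt1, Rps24, Far1, Map1a, Spon1 and Fth1, at 1.46 to 2.02 and an adjusted p of 0.0444 each. They are named after their values were seen. Other measures of the core were also higher in fasted. Its oligodendrocyte markers summed to 178 to 225 CPM in fed and 379 and 529 in fasted. Its median mt- share was 0.155% to 0.345% in fed and 0.463% and 0.479% in fasted. The part of these in the 8 called genes was not tested. Leaving out fed 1, fed 2 or fasted 2 left 0 genes called (226, 223 and 152 at an unadjusted p under 0.05), and DESeq2 called 2.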
